A study of Mus musculus with 4 samples.

Results

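The genes described here are the transcriptional coactivator gene Yap1, its DNA-binding partner gene Tead1, and 8 genes known as targets or regulators of the YAP-TEAD pathway. They are Cyr61, Ctgf, Thbs1, Amotl1, Amotl2, Axl, Myof and Lats2. The 10 genes were picked by symbol, with earlier results of these libraries known. The values that guided the choice are those of the contrast between Exosc3-depleted and Exosc3-present cells, so for these genes that contrast is given as a description, with no test. Of the 10 genes, 8 had a row among the 22883 rows of the expression table, each with a single row, under the UCSC identifiers uc008rqq.2 (Cyr61), uc008lrq.1 (Thbs1), uc009oep.1 (Amotl1), uc009rfx.1 (Amotl2), uc009ftx.2 (Axl), uc008hit.1 (Myof), uc007udk.1 (Lats2) and uc009odf.2 (Yap1). Ctgf and Tead1 had none under those symbols and are not analysed here.

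Total RNA came from Exosc3 conditional knockout clones (Exosc3 CKO) of the mouse embryonic stem cell line V6.5, grown without feeder cells. Exosc3 is a core subunit of the RNA exosome, the complex that degrades and trims many RNAs from their 3′ end. Both groups carry the same genotype: Exosc3-present cells stayed in 0.1 µg/ml doxycycline, and Exosc3-depleted cells were taken off it for 3 days. Each group had 2 libraries, and doxycycline and Exosc3 changed together, so their effects cannot be told apart. The labels speak of clones but do not say how many were used, or whether replicates were separate cultures. The p-values therefore measure the spread between these libraries, which may be technical.

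The per-million totals recovered from the spacing of the values were 38095701 to 60851769 fragments per library. Exosc3 itself stood at 24.2 and 23.2 FPKM in Exosc3-present replicates 1 and 2, and at 0.635 and 0.691 FPKM in Exosc3-depleted replicates 1 and 2, which fits the labels. FPKM is the number of sequenced fragments per kilobase of gene model, scaled to the library's total, so levels can be set beside each other between genes. Embryonic stem cell markers were present in both groups: Pou5f1, the gene for OCT4, was at 452 ± 26.5 FPKM (SD, n = 2) with Exosc3 and at 350 ± 90.0 (SD, n = 2) without. Of 7 such markers with a row, 5 were called lower in Exosc3-depleted cells, beside 30.1% of all tested rows, with the largest falls in Tdgf1 (log2 -1.60), Klf4 (-1.57) and Zfp42 (-1.51). Nanog, Sox2 and Tfcp2l1 had no row under those symbols and are not analysed here.

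The Hippo pathway is a kinase cascade in which MST kinases activate LATS kinases, which phosphorylate YAP and its relative TAZ and keep them out of the nucleus. YAP does not bind DNA itself. In the nucleus it binds TEAD proteins, which recognise a short DNA motif and switch on genes of the extracellular matrix, cell adhesion and growth, among them inhibitors that feed back on YAP. In the early embryo this pathway is best known for separating the outer trophectoderm from the inner cell mass, the origin of embryonic stem cells.

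TEAD proteins recognise the core GGAATG, read as CATTCC on the other strand. RefSeq promoter sequences of the GRCm38.p6 assembly, from 250 bases before to 50 bases after the start of transcription, were matched by symbol for 7 of the 10 genes. Ctgf, Thbs1 and Tead1 had no entry. Promoters of 4 of them are shown because they hold the core upstream of the start. The core is in capitals, and all sequences run 5′ to 3′ along the gene. For Cyr61 (now named Ccn1; chr3:145649986-145650235, minus strand) and Amotl2 (chr9:102717554-102717803, plus strand) the 250 bases that end just before the start are given. For Axl (chr7:25788924-25788983, minus strand) and Yap1 (chr9:8004705-8004764, minus strand) 60 bases around the core are given.
Cyr61: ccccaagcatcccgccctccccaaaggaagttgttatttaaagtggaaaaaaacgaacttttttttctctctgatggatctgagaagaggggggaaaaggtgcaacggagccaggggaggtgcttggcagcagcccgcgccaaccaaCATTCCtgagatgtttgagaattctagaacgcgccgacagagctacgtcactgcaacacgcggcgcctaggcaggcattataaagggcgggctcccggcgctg
Amotl2: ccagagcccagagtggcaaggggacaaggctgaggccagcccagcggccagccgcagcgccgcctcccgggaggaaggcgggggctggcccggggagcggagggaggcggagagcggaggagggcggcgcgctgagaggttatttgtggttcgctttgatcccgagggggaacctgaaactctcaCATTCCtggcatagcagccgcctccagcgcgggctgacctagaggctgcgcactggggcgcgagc
Axl: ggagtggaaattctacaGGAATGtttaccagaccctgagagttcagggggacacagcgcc
Yap1: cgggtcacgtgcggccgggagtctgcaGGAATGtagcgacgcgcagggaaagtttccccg

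The core began 103 bases before the start in Cyr61, 65 bases before it in Amotl2, 233 in Axl and 141 in Yap1. In Lats2 it lay in 1 of the 2 listed promoters, just after the start of transcription. The promoters of Amotl1 and Myof did not hold these letters. The core was thus in 5 of 7 matched genes, or in 5 of their 8 listed promoters (62.5%), beside 14.7% of all 32851 promoters of the same length. Counting only the 250 bases before the start, it was in 4 of the 7 genes (57.1%), beside 14.4% of all genes. The AP-1 motif TGANTCA, searched on both strands, can share bases with the TEAD core where they adjoin. It was in 0 of the 7 genes and in 8.97% of all genes. The CArG box, bound by the serum response factor and searched on both strands, was in 0 of the 7 and in 1.81% of all genes. At shares this low, 0 of 7 genes tells little. Such matches describe the letters in this window and do not show a bound site.

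Yap1, which encodes the coactivator, was among the more abundant of these genes and was at a similar level in both groups. It stood at 13.6 and 14.5 FPKM in the Exosc3-present libraries and at 9.65 and 14.4 FPKM in the Exosc3-depleted ones. The groups overlapped, with Exosc3-depleted replicate 1 as the low library. On the log2(FPKM + 0.5) scale, used for every log2 difference here, Yap1 differed by -0.24 (SE 0.23). The median of all 9336 tested rows, those with a mean of at least 0.5 FPKM, was -0.27 on that scale, so Yap1 lay 0.03 above the typical row. Between 1533 and 3449 fragments per library stood behind these values. The sign depended on the setting, since the Yap1 difference was -0.01 with median-of-ratios scaling, 0.07 with quantile normalization, 0.09 with scaling without the 50 highest rows and 0.03 without Exosc3-depleted replicate 1. The median row itself moved to -0.06, -0.05 and 0.03 under those 3 scalings.

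Cyr61, a secreted matricellular protein that binds integrins and is a standard readout of YAP activity, went from a low level to one of the higher levels in the cells. It was at 1.86 and 1.60 FPKM in the Exosc3-present libraries and at 92.2 and 77.4 FPKM in the Exosc3-depleted ones. Both Exosc3-depleted libraries lay far above both Exosc3-present ones. The means were 1.73 ± 0.182 and 84.8 ± 10.5 FPKM (SD, n = 2 each), a ratio of 49.1, and the log2 difference was 5.26 (SE 0.19). Cyr61 moved from above 25.2% of tested rows to above 96.0% of them. In bulk RNA, fewer cells of a type and less RNA per cell cannot be told apart, nor can more cells and more RNA per cell.

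Thbs1 encodes thrombospondin-1, a secreted glycoprotein that activates latent TGF-beta and restrains blood vessel growth. It was nearly absent from Exosc3-present cells, at 0.0453 and 0.0281 FPKM, which rest on 16 and 9 fragments. The Exosc3-depleted libraries held 3.14 and 6.14 FPKM, from 695 and 1494 fragments. The groups did not overlap, and replicate 2 was the higher of the Exosc3-depleted pair. The ratio of means was 126, the largest of the 8 genes, on a small base. The log2 difference of 3.20 (SE 0.28) understates it because of the pseudocount, and with a pseudocount of 0.1 it was 5.04. Thbs1 ended at 4.64 ± 2.12 FPKM (SD, n = 2), near the middle of the tested rows, and far below Cyr61.

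Axl and Myof encode membrane proteins. Axl, a receptor tyrosine kinase for the ligand GAS6, was at 0.443 and 0.595 FPKM with Exosc3 and at 1.82 and 2.20 FPKM without. All of its libraries were close to their replicate, and the log2 difference was 1.30 (SE 0.18). Myof, which encodes myoferlin, a protein of membrane repair and fusion, was at 1.11 and 1.46 FPKM with Exosc3 and at 3.18 and 7.88 FPKM without. Here the Exosc3-depleted libraries lay apart, so that the log2 difference of 1.64 had an SE of 0.37. Leaving out the lower of them, replicate 1, gave 2.24 for Myof, and leaving out the higher gave 1.05. Axl and Myof ended at means of 2.01 ± 0.266 and 5.53 ± 3.32 FPKM (SD, n = 2 each), ratios of 3.88 and 4.30 over Exosc3-present cells.

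Amotl2, Amotl1 and Lats2 act against YAP. Angiomotin-like proteins hold YAP at cell junctions and in the cytoplasm, and the kinase LATS2 phosphorylates it; Amotl2 and Lats2 are also known as YAP targets. Amotl2 was at 6.44 and 6.92 FPKM with Exosc3 and at 22.6 and 28.5 FPKM without, a log2 difference of 1.85 (SE 0.19) and a ratio of 3.83. Amotl1 was at 1.38 and 1.56 FPKM with Exosc3 and at 2.79 and 5.41 FPKM without, a log2 difference of 1.16 (SE 0.29). Lats2 was the lowest of the 8 genes apart from Thbs1 in Exosc3-present cells, at 0.279 and 0.286 FPKM, and reached 0.491 and 0.973 FPKM in the Exosc3-depleted libraries. In none of these 3 genes did the groups overlap. The Lats2 values rest on 82 to 212 fragments per library. Its log2 difference of 0.63 (SE 0.21) became 0.34 when the higher Exosc3-depleted library, replicate 2, was left out, and 0.91 when the lower was. Amotl1 gave 0.74 and 1.59 in the same order.

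**Figure D1:**
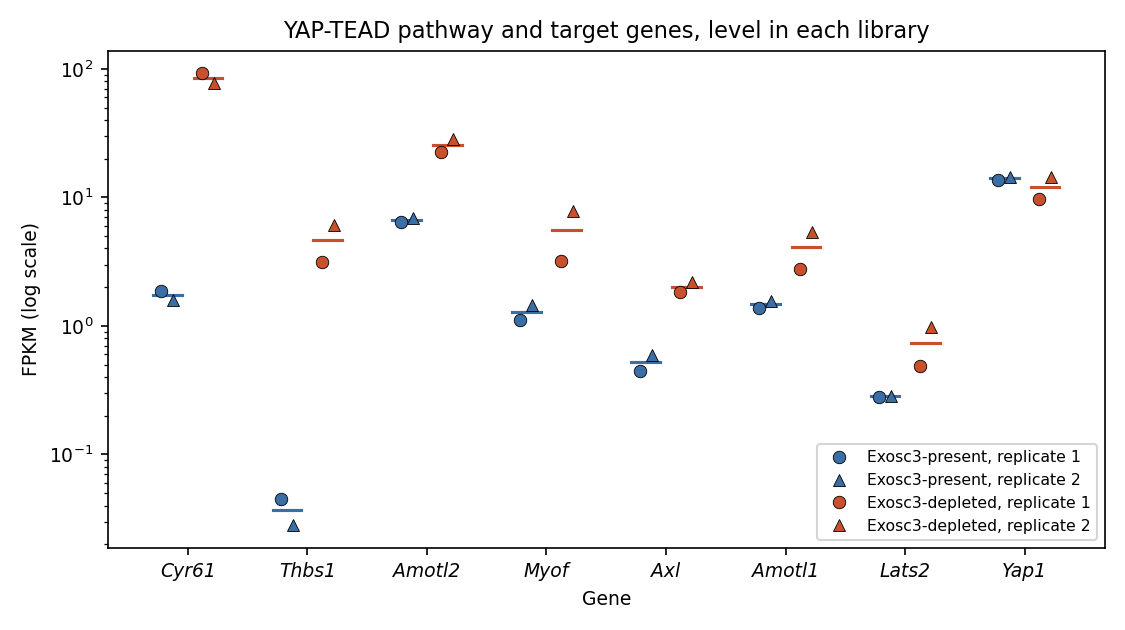
FPKM on a log axis for the 8 genes in each of the 4 libraries, with circles for replicate 1, triangles for replicate 2 and bars for the mean of each pair. Both Exosc3-depleted libraries lie above both Exosc3-present libraries in 7 genes, as they do in 22.2% of all tested rows. Yap1, at 9.65 to 14.5 FPKM, is the one of the 8 genes whose groups overlap.

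Set against Yap1, each of the other 7 genes had a more positive log2 difference, by 0.87 for Lats2, 1.41 for Amotl1, 1.54 for Axl, 1.89 for Myof, 2.09 for Amotl2, 3.44 for Thbs1 and 5.5 for Cyr61. The median of these gaps was 1.89. In 7 of the 8 genes both Exosc3-depleted libraries lay above both Exosc3-present ones, as they did in 22.2% of all tested rows, and in 0 they lay below, as in 50.9% of all tested rows. The fit across all rows (limma, adjusted p under 0.05) called 12.6% of all tested rows higher, 30.1% lower and 42.7% in either direction. Its calls for the 8 genes are left out, since they would be no test. The median log2 difference was 1.47 over the 8 genes. Nothing is read from these shares, because the genes were picked with this contrast known. All 8 passed the filter on mean FPKM, but Thbs1 and Lats2 did so only through the Exosc3-depleted libraries, and 6 would pass on Exosc3-present libraries alone. Across the settings tried, the lowest log2 difference among the 7 genes other than Yap1 was 0.34, for Lats2. Without Exosc3-depleted replicate 2, that of Yap1 was -0.52.

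**Figure D2:**
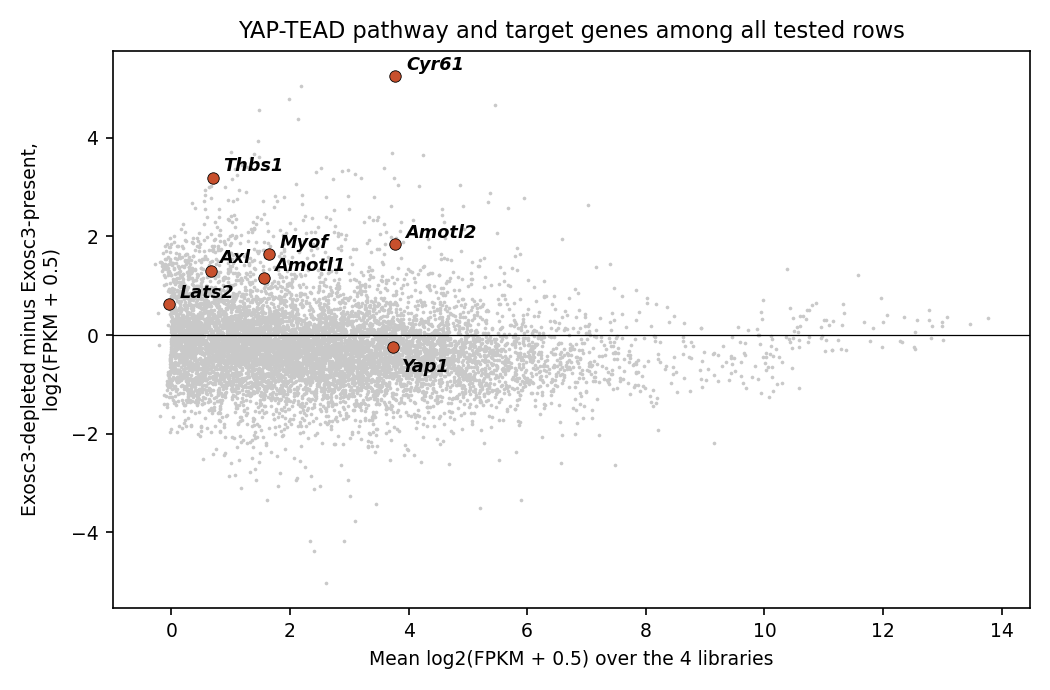
Each grey point is 1 of the 9336 tested rows, by its mean log2(FPKM + 0.5) over the 4 libraries and its difference between Exosc3-depleted and Exosc3-present cells, with the 8 genes in colour. Cyr61, at 5.26, lies at the upper edge of the cloud, Thbs1 at 3.20 near that edge for its level, and Yap1 at -0.24 within its middle.

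The proteins through which YAP acts on DNA were followed in the rest of their family. This and the next lists left out the 10 genes, and their rows were tested in the fit across all 9336 rows. Of the 8 genes in the coactivator and TEAD family list, 6 had a row and 3 were tested. Tead2, the higher of the 2 TEAD genes with a row, fell from 62.8 and 55.4 FPKM to 20.9 and 18.1 FPKM (log2 -1.57, SE 0.18, limma adjusted p = 0.00091). Tead3 rose from 0.838 and 0.754 FPKM to 2.5 and 2.28 FPKM (log2 1.15, SE 0.17, limma adjusted p = 0.00251). Wwtr1, which encodes TAZ, the relative of YAP, was at 1.85 and 1.74 FPKM with Exosc3 and at 1.07 and 1.87 FPKM without (log2 -0.25, limma adjusted p = 0.42). Tead2 and Tead3 kept their calls under every alternative in which they were tested, and Tead2 remained the higher, at 19.5 ± 1.96 against 2.39 ± 0.156 FPKM (SD, n = 2 each) in Exosc3-depleted cells. Vgll3, a TEAD cofactor, was too low to be tested, at means of 0.0844 FPKM with Exosc3 and 0.650 FPKM without. Promoters of this family held the TEAD core in 5 of 7 matched genes, beside 16.6% of all genes.

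A published YAP/TAZ target signature from human tumours gave a list that was not drawn from these libraries. The signature was, however, chosen with earlier results of these libraries known. Leaving out Cyr61, Amotl2, Axl, Myof, Lats2 and Ctgf, 16 of its genes remained; rows were present for 13, and 9 passed the filter and entered the test. Of these 9, 5 rose and 0 fell, beside 12.6% of all tested rows that rose. Their median log2 difference was 0.74, where that of all tested rows was -0.27. Ptpn14, a phosphatase that also restrains YAP, led the list and rose from 1.73 and 1.88 FPKM to 12.5 and 19.4 FPKM (log2 2.80, SE 0.24, limma adjusted p = 0.000415). Its ratio of means was 8.83, and its log2 difference lies between those of Thbs1 and Amotl2. Igfbp3, an insulin-like growth factor binding protein, rose from 1.85 and 1.91 FPKM to 4.71 and 5.17 FPKM (log2 1.19, limma adjusted p = 0.00275). Crim1, a membrane protein that binds BMPs, rose from 0.458 and 0.453 FPKM to 1.27 and 1.99 FPKM (log2 1.13, limma adjusted p = 0.0052). It passed the filter on mean FPKM only through the Exosc3-depleted libraries. Fjx1 (log2 0.74) and the ectonucleotidase gene Nt5e (0.75) rose by less.

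The 4 tested genes of this list that did not pass were F3, the tissue factor gene (log2 -0.11), Asap1 (-0.15), Nuak2 (-0.29) and Dock5 (-0.47). Ankrd1, a common YAP readout in other cells, was close to absent, at means of 0.00513 FPKM with Exosc3 and 0.0696 FPKM without, and was not tested. Tgfb2, a TGF-beta ligand gene, was also too low, at means of 0.0324 and 0.363 FPKM. Leaving out Exosc3-present replicate 1 or 2 left 3 rises, since Fjx1 (log2 0.77 and 0.71, adjusted p = 0.207 and 0.263) and Nt5e (log2 0.70 and 0.81, adjusted p = 0.196 and 0.131) then did not pass in limma's test. Without Exosc3-depleted replicate 2, 2 genes fell. A filter on the Exosc3-present libraries left 8 tested, without Crim1, of which 4 rose, and one at a mean FPKM of at least 2 left 6, of which 3 rose. The TEAD core was in the promoters of 3 of 10 matched genes, Ptpn14, Crim1 and Ankrd1, beside 16.6% of all genes.

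**Figure D3:**
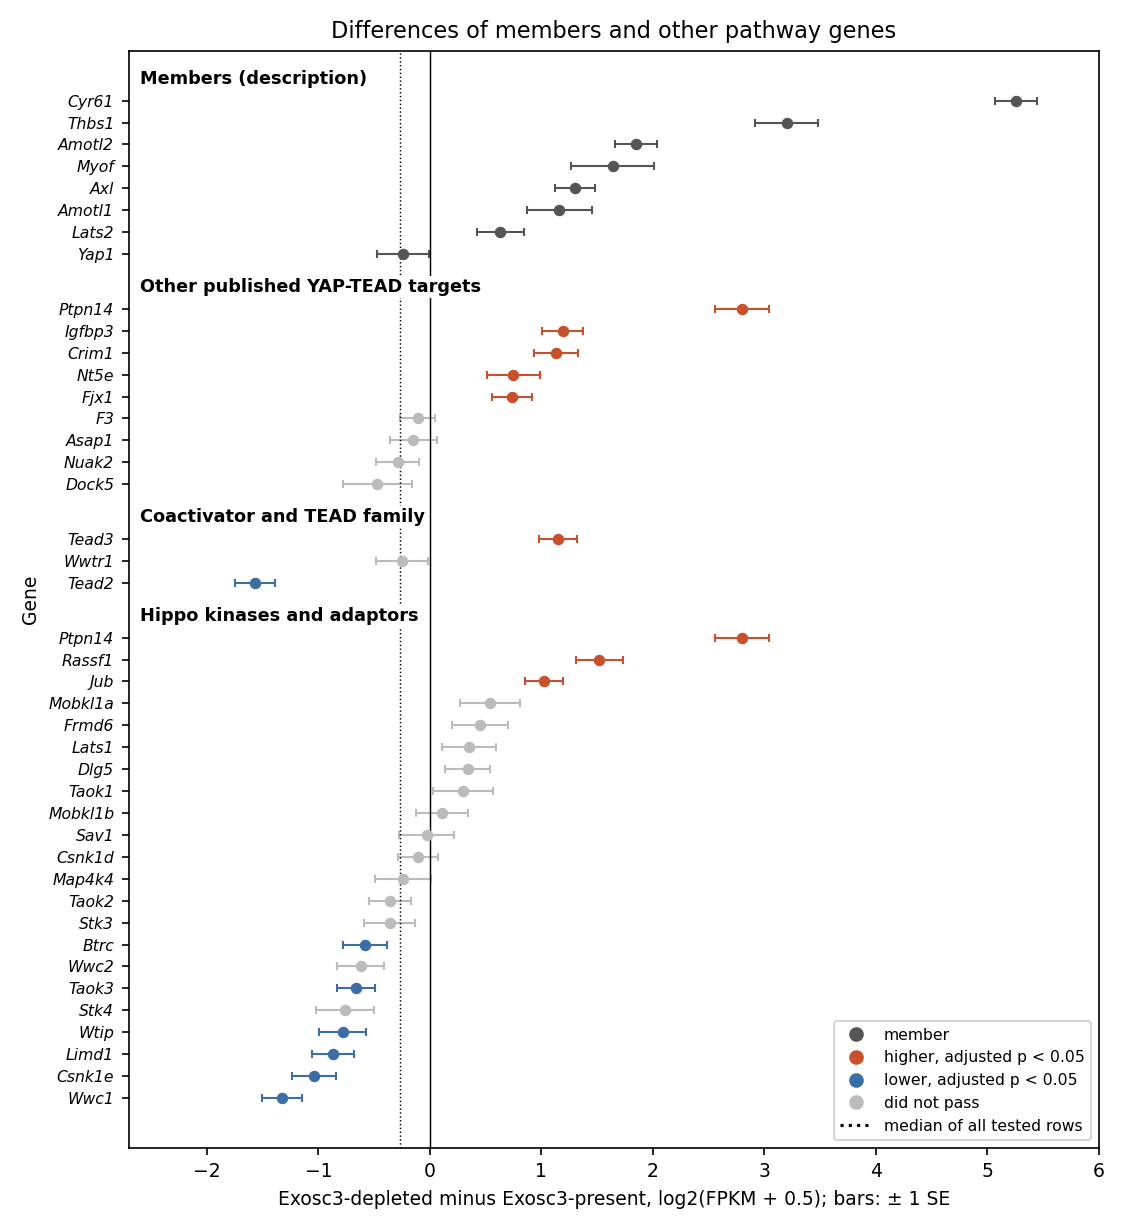
Log2 differences between Exosc3-depleted and Exosc3-present cells, with bars of 1 SE, for the 8 genes (dark grey, no test) and for tested genes of the other lists, coloured by their call; Ptpn14 stands in both of its lists. The dotted line is the median of all tested rows at -0.27. The kinases and adaptors spread to both sides of it, from Wwc1 at -1.33 to Ptpn14 at 2.80.

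Upstream, the genes of the Hippo kinases and their adaptors went both ways. Rows were present for 24 of 26 genes. The test covered 22 of these, and 3 rose and 6 fell, shares close to the 12.6% and 30.1% of all tested rows. The MST kinase genes Stk3 (log2 -0.36, limma adjusted p = 0.233) and Stk4 (-0.76, 0.0542), their partner Sav1 (-0.03, 0.921) and the kinase gene Lats1 (0.35, 0.27) did not pass. Besides Ptpn14, Rassf1, a scaffold that binds MST kinases, rose from 3.34 ± 0.775 to 10.5 ± 0.483 FPKM (log2 1.52, limma adjusted p = 0.00191). Jub, the gene for the LIM protein AJUBA that binds LATS kinases, rose from 28.9 ± 1.49 to 59.3 ± 5.83 FPKM (log2 1.02, limma adjusted p = 0.00374). Ajuba's LIM relatives Limd1 (log2 -0.87) and Wtip (-0.78) fell. So did Wwc1, the gene for the adaptor KIBRA, from 9.75 ± 0.322 to 3.58 ± 0.139 FPKM (-1.33, limma adjusted p = 0.00172), and Csnk1e (-1.04), Taok3 (-0.66) and Btrc (-0.58). The 3 rises and the fall of Wwc1 passed in every alternative. Without Exosc3-present replicate 1 or 2 only Wwc1 remained of the 6 falls, as with scaling without the 50 highest rows. The list median was -0.18, close to the median row.

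Relatives of the 10 genes did not all share their direction. Of the other TAM receptor genes, Tyro3 fell from 15.6 and 16.0 FPKM to 7.87 and 5.92 FPKM (log2 -1.16, limma adjusted p = 0.00436), while Axl stood higher in Exosc3-depleted cells, as described above. Mertk was too low to be tested, at means of 0.433 and 0.3 FPKM. Tyro3 thus remained the TAM receptor gene with the highest level in both groups, at 6.89 ± 1.38 FPKM (SD, n = 2) without Exosc3 against 2.01 ± 0.266 for Axl. Of the genes for the ligands, Pros1 rose from 2.17 and 2.59 FPKM to 4.99 and 10.3 FPKM (log2 1.42, limma adjusted p = 0.0119), and Gas6 was at 7.35 ± 0.884 and 6.05 ± 1.5 FPKM (log2 -0.28, adjusted p = 0.357). Thbs3 rose by 0.67 (SE 0.18, limma adjusted p = 0.0232). Its difference was as large without Exosc3-present replicate 1 (0.61, SE 0.43, adjusted p = 0.334) or 2 (0.73, SE 0.43, adjusted p = 0.249) but did not pass. Both the other thrombospondin genes Thbs2 and Thbs4 were too low to be tested. The CCN family genes Nov, Wisp1 and Wisp2 stayed under 0.2 FPKM in the mean of both groups, far under Cyr61.

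Cyr61, Ctgf and Thbs1 are also known as targets of the serum response factor, which responds to actin. In a list of its targets and cofactors 13 of 18 genes were tested, of which 6 rose and 1 fell, beside 12.6% and 30.1% of all tested rows, with a median log2 difference of 0.38. Tpm1, a tropomyosin gene, rose from 11 and 12.5 FPKM to 67.7 and 83.0 FPKM (log2 2.63, limma adjusted p = 0.00027), and Fhl2 from 0.0421 and 0.0232 FPKM to 1.16 and 1.54 FPKM (1.79, 0.000485). Fhl2, with 4 and 2 fragments in the Exosc3-present libraries, passed the filter only through the Exosc3-depleted ones, and a filter on the Exosc3-present mean alone left 12 tested, of which 5 rose. Cnn2 rose by 0.86, and Tpm2 fell by 0.84, a call lost under the 3 other scalings (limma adjusted p = 0.0648, 0.0915 and 0.0774). The factor's own gene Srf was at 5.01 ± 0.026 and 5.02 ± 0.978 FPKM (log2 -0.01, limma adjusted p = 0.972), and Vcl and Flna did not pass. Leaving out Exosc3-present replicate 1 or 2 left 2 rises and 0 falls in this list. Whether serum response factor or TEAD proteins account for Cyr61 and Thbs1 was not tested.

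Cyr61 was most like 3 other rows over the 4 libraries, by the root mean square distance between profiles of log2(FPKM + 0.5) that were each centred on their own mean. These were Cpz (distance 0.26), S100a6 (0.31) and Fgfbp1 (0.33), among rows that passed the filter on mean FPKM. Cpz and Fgfbp1, at means of 0.252 and 0.289 FPKM with Exosc3, passed it only through the Exosc3-depleted libraries. Cpz, a secreted carboxypeptidase gene, went from 0.204 and 0.3 FPKM to 22.8 and 18.0 FPKM. S100a6, a calcium-binding protein gene, went from 8.14 and 8.23 FPKM to 254 and 189 FPKM. With 4 libraries in 2 groups this measure mainly follows the size of the difference between the groups.

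The spread within the Exosc3-depleted pair followed the length of the gene model, and most of the 8 genes are long. Lengths recovered from the FPKM values were 2028 bases for Cyr61 and between 4169 bases, for Yap1, and 8950 bases, for Amotl1, in the others, where the median row had 2498 bases. Replicate 2 lay above replicate 1 in 7 of the 8 genes, as in 57.6% of all tested rows. By length, the median difference of replicate 2 minus replicate 1 was -0.14 on the log2 scale in models up to 1000 bases, 0.13 between 2000 and 4000, 0.42 between 4000 and 6000 and 0.60 beyond 6000. In the Exosc3-present pair the same medians ran from -0.01 to 0.13. The pair difference was 1.19 in Myof, beside an interquartile range of 0.20 to 0.78 in 679 rows of like length (the shorter model at least 0.8 times the longer). It was 0.86 in Thbs1, beside 0.16 to 0.72. For the other 6 genes the pair difference was within the quartiles of like rows or, in Cyr61 (-0.25), just under the lower one at -0.24. Removing a length trend from each library changed the log2 differences of the 8 genes little: Amotl1 became 1.01, Myof 1.56 and Lats2 0.62, and Cyr61 5.28. What set the length trend was not tested.

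**Figure D4:**
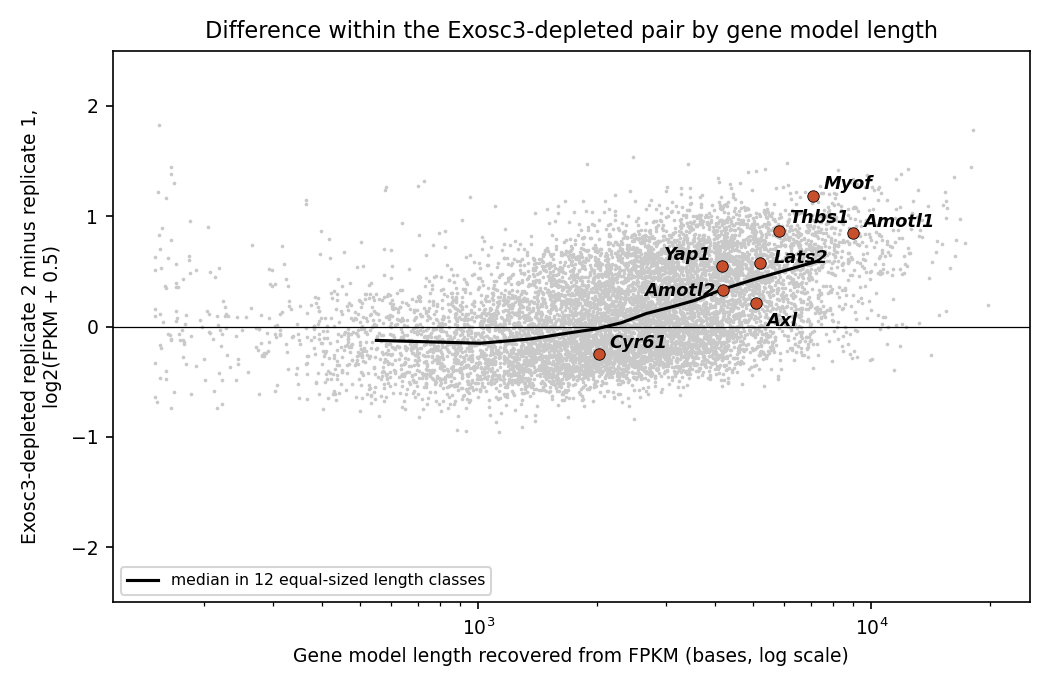
Exosc3-depleted replicate 2 minus replicate 1, in log2(FPKM + 0.5), against recovered gene model length on a log axis for all tested rows with a recovered length (grey), with the 8 genes in colour and the median in 12 length classes as a line. The line climbs with length, Myof at 1.19 and Thbs1 at 0.86 lie above it, and Cyr61 at -0.25 is the one of the 8 below 0. A further 1 row lies outside the axis.

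Markers of other cell types were read in the same libraries, in which 12.6% of all tested rows rose and 30.1% fell. Dcn, Lum, Postn and Fap, 4 of 13 fibroblast markers with a row, are listed at 0 in all 4 libraries. The summed level of the 13 was 7.99 to 9.30 FPKM with Exosc3 and 10.8 to 13.9 FPKM without. Of the 5 tested, Twist1 (log2 1.17) and Mmp2 (0.99) rose, and Thy1 fell (-2.01). Trophectoderm markers summed to 26.4 and 29.0 FPKM with Exosc3 and to 146 and 111 FPKM without, mostly from the keratin genes Krt19 (log2 2.56), Krt8 (2.29) and Krt18 (1.97). Of 7 tested 6 rose. Among them were the transcription factor genes Hand1, from a mean of 0.0412 to 0.989 FPKM, and Ascl2, from 0.848 to 1.83 FPKM. Eomes fell (-0.57, SE 0.18), a call not made with median-of-ratios scaling, scaling without the 50 highest rows or no filter on low values. Without Exosc3-present replicate 1 or 2 its difference was -0.74 (SE 0.31) or -0.4 (SE 0.3). The factor genes Cdx2 and Gata3 were too low to be tested, at means of 0.0199 and 0.00282 FPKM with Exosc3 and 0.200 and 0.112 FPKM without, and Elf5, at 0.0267 FPKM with Exosc3, is listed at 0 without.

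Primitive endoderm markers summed to 87.2 and 110 FPKM with Exosc3 and to 221 and 223 FPKM without, mostly from Col4a2 (log2 2.24), Col4a1 (1.96), Sparc (1.36) and Lamb1. Of 11 tested 8 rose and Amn fell (-0.85, not called with the latter scaling), and 4 rose without Exosc3-present replicate 1 or 2. Amn was also not called with no filter on low values. Its difference was -0.73 (SE 0.35) without Exosc3-present replicate 2. Twist1, Hand1, Gata6, Sox17 and Pdgfra, all called higher, passed the filter on mean FPKM only through the Exosc3-depleted libraries. When rows were filtered on their Exosc3-present mean alone, 5 of 8 primitive endoderm markers rose and 1 fell. Of 6 trophectoderm markers 5 rose and 1 fell. Of the 4 fibroblast markers then tested, 1 rose and 2 fell, with a median log2 difference of -0.2. They included Pdgfrb, too low for the main test, at 0.65 and 0.682 FPKM with Exosc3 and 0.107 and 0.119 FPKM without. The part of such cells in the levels of the 8 genes was not tested.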

How the data were processed

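Stranded, ribosomal RNA-depleted, paired-end libraries were sequenced from total RNA of 2 Exosc3-present and 2 Exosc3-depleted samples, per the labels. The authors deposited 1 table of FPKM values with UCSC gene identifiers and symbols. The submitters' processing notes name mm9, Bowtie2, STAR, Picard, bedtools and edgeR without roles, so the counting step is not given in the sources used here.

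The members and gene lists were chosen with earlier results of these data known. Rows whose FPKM averaged 0.5 or more (9336 of 22883) were tested on log2(FPKM + 0.5) with limma 3.58.1 (R 4.3.3, intensity trend, no covariate), two-sided, with Benjamini-Hochberg adjustment over all of them and a threshold of 0.05. The test had 2 residual and 4.98 prior degrees of freedom. The script was also run on simulated data with known changes. Of the tested rows 4801 had an unadjusted p under 0.05. This scale understates differences of low genes; ratios are of mean FPKM. Named genes were all members, the largest 3 called rises and falls in each list, every tested TEAD family gene and the 3 rows most like Cyr61; other named genes were chosen after their values were seen. Model lengths and fragments were recovered from the spacing of the FPKM values: 9290 of 9292 tested rows above 0 in all libraries came out whole within 0.01 of a fragment, wider at high counts, at the shortest length that worked. They served depth and length only. Alternatives changed the pseudocount (0.1, 1), the filter, the scaling, a replicate block and each library left out, and removed a length trend. With 2 libraries a group, precision is limited for every gene. Promoters are RefSeq sequences of GRCm38.p6, matched by current or older symbol; that build is not the mm9 of the notes.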

Additional observations from a re-analysis of the deposited data

How the results depend on the processing

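Of all rows, 1177 were called higher and 2806 lower. The number lower was 1848 with median-of-ratios scaling, 1782 with quantile normalization and 1330 with scaling without the 50 highest rows, so that 46.7%, 47.0% and 53.7% of called rows were higher in place of 29.6%. With a filter at a mean FPKM of at least 2, 667 rows were higher. With 1 library left out, 668 (without Exosc3-present replicate 2) to 2183 (without Exosc3-depleted replicate 1) rows were higher and 1082 (without Exosc3-present replicate 2) to 4715 (without Exosc3-depleted replicate 2) lower, and without Exosc3-present replicate 1 these were 671 and 1362. The lone library of a group was then assumed to vary like the other group's pair. In the TEAD family list 2 genes were higher with no filter on low values and 0 with the filter at 2 FPKM, and 1 to 2 were lower with a library left out. Of the Hippo kinases and adaptors 6 were higher with median-of-ratios scaling and 1 lower with scaling without the 50 highest rows; with a library left out 3 to 9 were higher (9 without Exosc3-depleted replicate 1) and 1 to 11 lower (1 without either Exosc3-present replicate, 11 without Exosc3-depleted replicate 2). Of the other published targets 3 were higher with the filter at 2 FPKM, 3 to 5 with a library left out and 0 to 2 lower then, and 1 lower with the length trend removed, an alternative chosen after seeing the data. The median gap between the other 7 members and Yap1 was 2.15 with a pseudocount of 0.1, 1.65 with 1 and 2.09 with the filter at 2 FPKM, which drops Axl and Lats2. Wwtr1 changed sign with scaling without the 50 highest rows (0.01) and without Exosc3-depleted replicate 1 (0.05), and was called lower without Exosc3-depleted replicate 2 (-0.55). Beyond the smaller sets of rows and libraries, the causes were not tested. The median over the members in the fit was 1.12 to 1.84 in all settings. Only 6 of the 8 were in the fit with the filter at 2 FPKM or on the Exosc3-present libraries.

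The replicate numbers are shared by the groups, but the labels do not say that they pair samples. The replicate 1 minus 2 differences of the groups had a correlation of 0.244 across rows. With the replicate number as a block, 1431 rows were higher and 3468 lower, and of the Hippo genes 4 were higher and 8 lower. The counts of the other published targets and the TEAD family stayed at 5 and 0, and at 1 and 1.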
